A study of Mus musculus with 12 samples.

Results

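Potassium channel genes were followed through whole mouse retina as the protein-coding genes whose symbols start with Kcn, by identifier and GENCODE M21 name. Kcnj8 and Kcnj10 were left out by name, and 88 of the 55487 genes in the gene table are described. The symbols cover the pore-forming subunits of all potassium channel classes, the silent subunits that only modify them, and several families of auxiliary subunits. Polyadenylated RNA had been sequenced in 12 libraries, 3 in each of 4 groups: wild-type retinas of strain C57BL/6J at 1 month and at 6 months of age, and 5xFAD retinas at the same ages, whose strain label is Tg6799. 5xFAD mice are an Alzheimer disease model in which mutant human transgenes, APP among them, are expressed from the neuronal Thy1 promoter, so that transgene output is set by cells that use this promoter. The study set out to compare transcripts, retained introns among them, between the genotypes at both ages. The labels do not say whether the libraries of a group came from separate animals or whether retinas were pooled, so p-values measure only the spread between these libraries, which may be technical. Of the 88 genes, 62 had enough reads to be tested.

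Potassium channels let potassium leave neurons, which sets the resting potential, ends the action potential and limits repetitive firing. Voltage-gated families (Kcna, Kcnb, Kcnc, Kcnd, Kcnh, Kcnq) open on depolarisation, Kcnma1 and Kcnn channels need calcium, Kcnt channels need sodium, Kcnj channels rectify inwardly, and two-pore Kcnk channels carry the background leak. In the retina, rods and cones pass a steady outward current in darkness through channels that contain the silent subunit Kcnv2. Inner neurons use Kcnc, Kcna and Kcnma1 channels to shape spikes and synaptic output, and ganglion cell axons carry Kcna channels.

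Library totals ran from 10928024 to 19552540 estimated read counts, and 61 to 75 of the potassium channel genes had a count in each library. Levels are given as per-million counts (CPM) of the TMM-scaled library total, and replicate pairs of a group differed by more than counting noise (chi-square per degree of freedom 4.05 to 26.7). The mean transcript length behind a count moved with the groups: 3709 ± 135 nt (SD, n = 3) in WT and 4237 ± 15.6 nt in 5xFAD at 1 month, then 3911 ± 189.6 and 3658 ± 55.2 nt at 6 months. Within the 6-month WT group, replicate 3 stood at 3692 nt against 4019 and 4022 nt. Ribosomal RNA took 1.11%, 0.446% and 0.325% of counts in 6-month 5xFAD replicates 1 and 2 and 1-month WT replicate 2, and less in the other libraries. These 3 are called the rRNA-rich libraries below. Rod and cone markers were high in every library: the 7 rod genes summed to 48356 to 51755 CPM in 1-month WT. The 7 cone genes summed to 1360.1 to 1600.0 CPM in WT and 1098 to 1291 CPM in 5xFAD at 1 month (3 lower, none higher), and to 1172 to 1277 and 1515 to 1674 CPM at 6 months (3 higher, none lower). This was the opposite direction from most channel genes, and the change between ages was positive for 5. The 7 bipolar genes summed to 1156 to 1315 and 1330.1 to 1411 CPM at 1 month and to 1149 to 1355 and 1117 to 1140.3 CPM at 6 months, WT first. Their sum moved in the direction of most channel genes, but the single genes were mixed (2 higher and 1 lower at 1 month, 1 lower at 6 months). Their median log2 fold change was -0.01 at 1 month and -0.05 at 6 months. Lens genes, of which 1 of 6 was tested and rose, summed to 0.504 to 1.08 CPM in WT and 5.47 to 53.8 CPM in 5xFAD at 1 month. Over all 15 marker lists, the 1-month sums were above all WT libraries in every 5xFAD library for rod, bipolar, endothelial, pericyte and lens and below them for cone, microglia, pigment epithelium and choroid and sclera and connective tissue. At 6 months they were above for rod, cone, lens and red blood cells and below for bipolar, amacrine, Muller glia and endothelial. Summed markers of neighbouring tissue and of vessels differed with genotype. The 9 pigment epithelium and choroid genes summed to 77.4 to 145 CPM in WT and 28.1 to 40.6 CPM in 5xFAD at 1 month (4 of 7 tested lower, none higher). The 5 endothelial genes, all of them detected, summed to 118 to 134 CPM in WT and 194 to 209 CPM in 5xFAD at 1 month. At 6 months they summed to 109 to 146 and 77.7 to 90.3 CPM. Of these 5, only 1 rose at 1 month and only 1 fell at 6 months, and none of the 5 pericyte genes passed at either age. The summed amacrine markers stood at 658 to 755 and 754 to 827 CPM at 1 month and at 725 to 772 and 591 to 671 CPM at 6 months, in the same order of genotypes. Of these 7 amacrine genes, 2 rose and none fell at 1 month, and 2 fell and none rose at 6 months, as most channel genes did. Their median log2 fold change was 0.09 at 1 month and -0.24 at 6 months, and the change between ages was negative for 3 and positive for none. The summed ganglion cell markers overlapped at both ages. The part of these shifts in the results was not tested, and in bulk retina fewer cells of a type and less RNA per cell cannot be told apart. Mouse counts do not test for the human transgenes, which were not analysed here.

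Levels of different genes were compared only per length, as CPM per kilobase of the transcripts that took the counts. Over the 12 libraries, Kcnj14 was the most abundant of them at 215 ± 31.2 CPM per kb (SD, n = 12), followed by Kcnv2 at 127 ± 15.0 and Kcnab2 at 88.5 ± 7.87 CPM per kb. Kcnj14 encodes an inward rectifier, Kcnv2 a silent subunit of photoreceptor channels and Kcnab2 a cytoplasmic beta subunit of Kcna channels. These 3 genes were separate from each other within 1 SD. In 1-month 5xFAD Kcnj14 and Kcnv2 stood at 210.0 and 144 CPM per kb and in 6-month 5xFAD at 251 and 124 CPM per kb. The next genes were Kcne2 at 31.7 ± 4.14, Kcnj9 at 29.8 ± 3.15, Kcnma1 at 25.6 ± 6.44, Kcna5 at 24.7 ± 4.34 and Kcnh2 at 23.8 ± 3.18 CPM per kb, and their spreads overlapped from one neighbour to the next. The order depends on the length used: per kilobase of all annotated exons, Kcnab2 was at 51.0 and Kcnip1 at 22.9 on the first and 6.89 CPM per kb on the second scale, while Kcnj14 stayed first at 212.

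**Figure D1:**
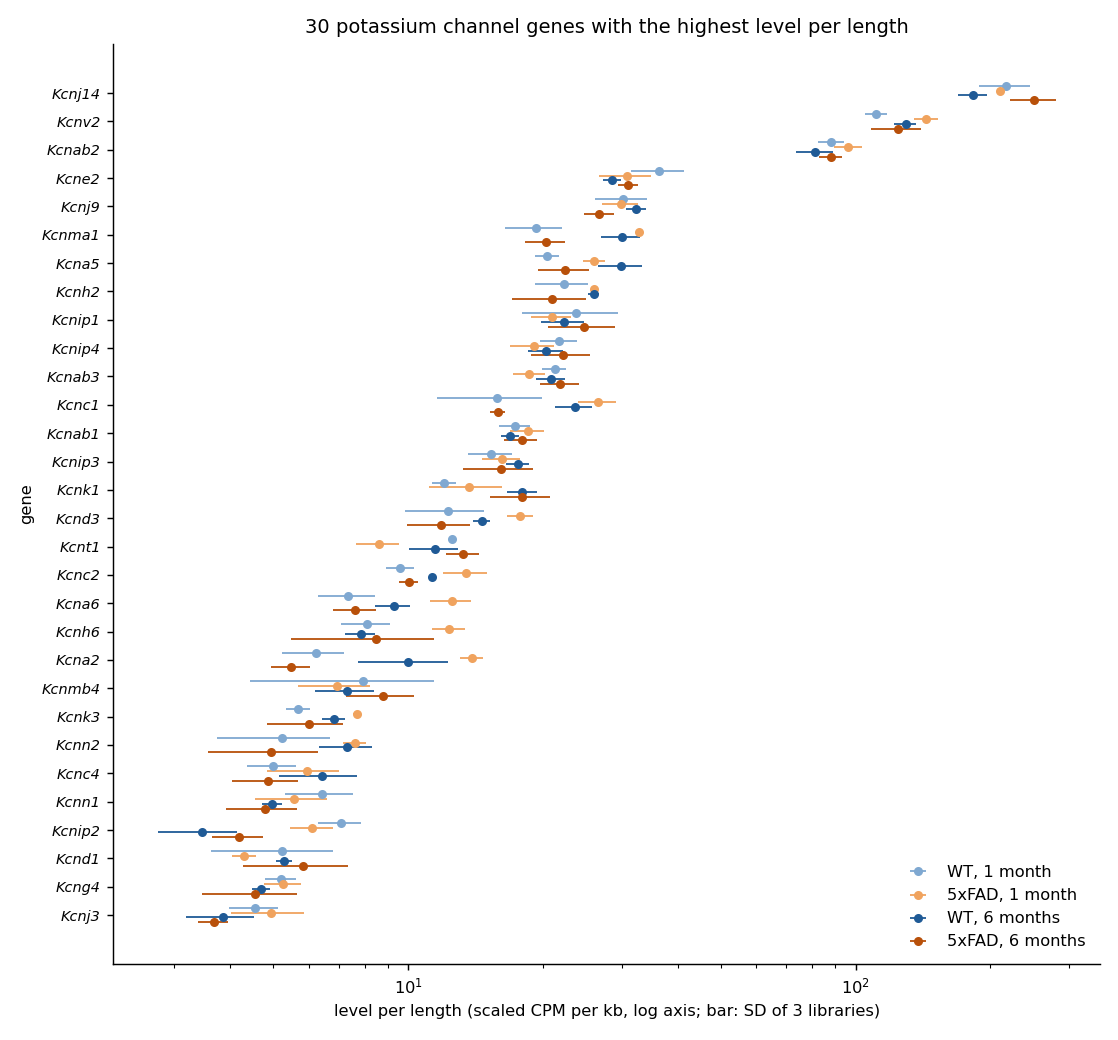
Levels per length (CPM per kb, log axis) of the 30 potassium channel genes highest on this scale; points are means of 3 libraries for each of the 4 groups and bars are SDs. Kcnj14, Kcnv2 and Kcnab2 stand apart from the rest; the next gene, Kcne2, is at 31.7 CPM per kb against 88.5 for Kcnab2.

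At 1 month, potassium channel RNA was higher in 5xFAD than in WT retina before any adjustment for transcript length, which is described below. The summed level of all 88 genes was 3006 ± 18.9 CPM in WT and 3736 ± 30.2 CPM in 5xFAD (SD, n = 3), and the highest WT library stayed below the lowest 5xFAD library. Of the 62 tested genes, 19 rose (30.6%) and 1 fell in edgeR's quasi-likelihood test, where 10.7% of all tested genes rose and 8.91% fell. The median log2 fold change was 0.35 for the channel genes and -0.04 for all tested genes. The gene that fell was Kcnt1, a sodium-activated channel. The 3 libraries of each genotype did not overlap for 24 channel genes that were higher and 2 that were lower in 5xFAD, against 18.7% and 18.9% of all tested genes. Without 1-month WT replicate 2, 13 in place of 20 genes passed.

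At 6 months most of the genes that passed were lower in 5xFAD: 10 genes fell (16.1%) and 1 rose, against 3.89% and 2.48% of all tested genes, with a median log2 fold change of -0.20 (0.00 over all genes). The summed level was 3339.6 ± 102 CPM in WT and 3153 ± 42 CPM in 5xFAD, with the WT libraries at 3319, 3451 and 3249 and the 5xFAD libraries at 3116, 3144 and 3199 CPM. Every 5xFAD library was below every WT library in this sum, by a small margin. The gene that rose was Kcnj14. For 18 genes all 5xFAD libraries lay below all WT libraries (12.8% of all tested genes), and for 1 they lay above (11.4%). The count of 11 that passed became 6 without 6-month WT replicate 1, 4 without WT replicate 2, and 7 when either of 5xFAD replicates 1 and 2 was left out. It was 7 when only the 6 libraries of that age were fitted, and 2 (Kcnh5 and Kcnk9) without the 3 rRNA-rich libraries, which leaves 1 library of 6-month 5xFAD that is then assumed to vary like the others.

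The change of the genotype difference with age was itself tested, as the difference at 6 months minus that at 1 month. It was negative for 23 of 62 genes (37.1%) and positive for 2, Kcnt1 and Kcnj14, against 13.3% and 11.7% of all tested genes. Both the rise at 1 month and the fall at 6 months passed the test for 9 genes: Kcna1, Kcna2, Kcna5, Kcnb2, Kcnc1, Kcnh5, Kcnj2, Kcnk9 and Kcnma1. They were 47.4% of the genes that rose at 1 month and 90.0% of those that fell at 6 months. Over all tested genes with a known length these shares were 27.1% and 74.2%, and in the longest of 3 equal length groups 28.2% and 82.4%. The 2 comparisons share no library, but all 12 libraries were fitted together and share 1 estimate of the spread. The calls at the 2 ages are therefore not independent, and that of Kcnb2 at 6 months depended on 1-month libraries, as given below. Regardless of any test, 36 of the 62 genes (58.1%) had a positive estimate at 1 month and a negative one at 6 months, compared with 31.7% of all tested genes.

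**Figure D2:**
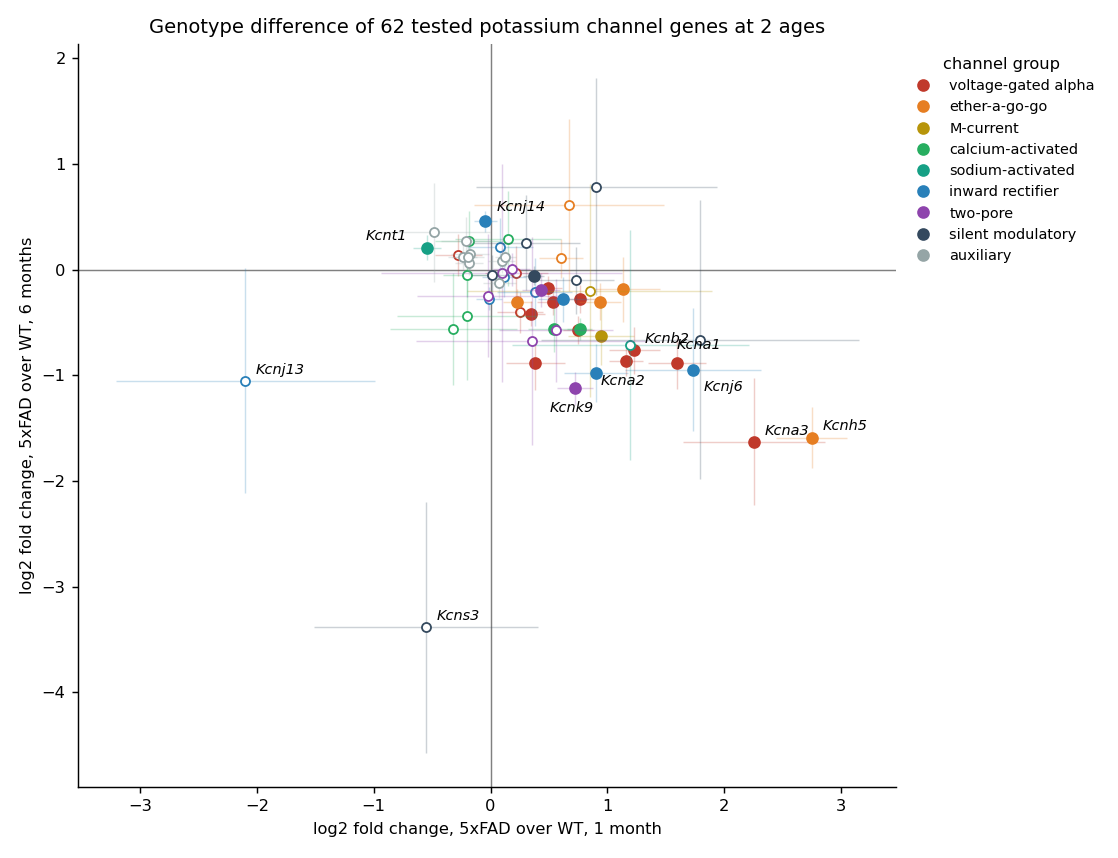
Log2 fold change of 5xFAD over WT at 1 month (x axis) against that at 6 months (y axis) for the 62 tested potassium channel genes, coloured by channel group, with standard errors; filled points passed the test of the change between ages. Most filled points lie at the lower right (higher in 5xFAD at 1 month, lower at 6 months), and Kcnt1 and Kcnj14 lie at the upper left.

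Transcript length moved with both genotype differences, in all genes as well as in the channel genes. The tested channel genes had a median length of 3718 nt against 2746 nt for all tested genes, and 32 of them fell in the longest of 3 equal length groups (over 3577 nt). At 1 month, 16 of these 32 rose, compared with 27% of all genes of that length group; at 6 months 9 fell (28.1%), compared with 9.24%. In 20 length bins, the median of all genes ran from -0.52 in the shortest to 0.52 in the longest bin at 1 month and from 0.25 to -0.29 at 6 months; 48 of 62 channel genes lay above their bin's median at 1 month and 41 below it at 6 months. Across genes, which are not independent replicates, the rank correlation of fold change with length was 0.50 for the channel genes and 0.48 for all tested genes at 1 month.

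When each library's own trend on transcript length and GC content was removed before the test, 9 channel genes rose and 1 fell at 1 month (5.03% and 6.67% of all genes), 2 rose and 8 fell at 6 months (4.06% and 3.68%), and the change with age was negative for 13 and positive for 2 (8.19% and 9.82%). The genes still higher at 1 month were Kcna1, Kcna2, Kcna3, Kcna5, Kcna6, Kcnc1, Kcnh5, Kcnh6 and Kcnma1. Those still lower at 6 months were Kcna1, Kcna2, Kcna4, Kcna5, Kcnc1, Kcnh5, Kcnk9 and Kcnma1, so 6 genes kept both calls after this step: Kcna1, Kcna2, Kcna5, Kcnc1, Kcnh5 and Kcnma1. Values after this step are called length-adjusted below.

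**Figure D3:**
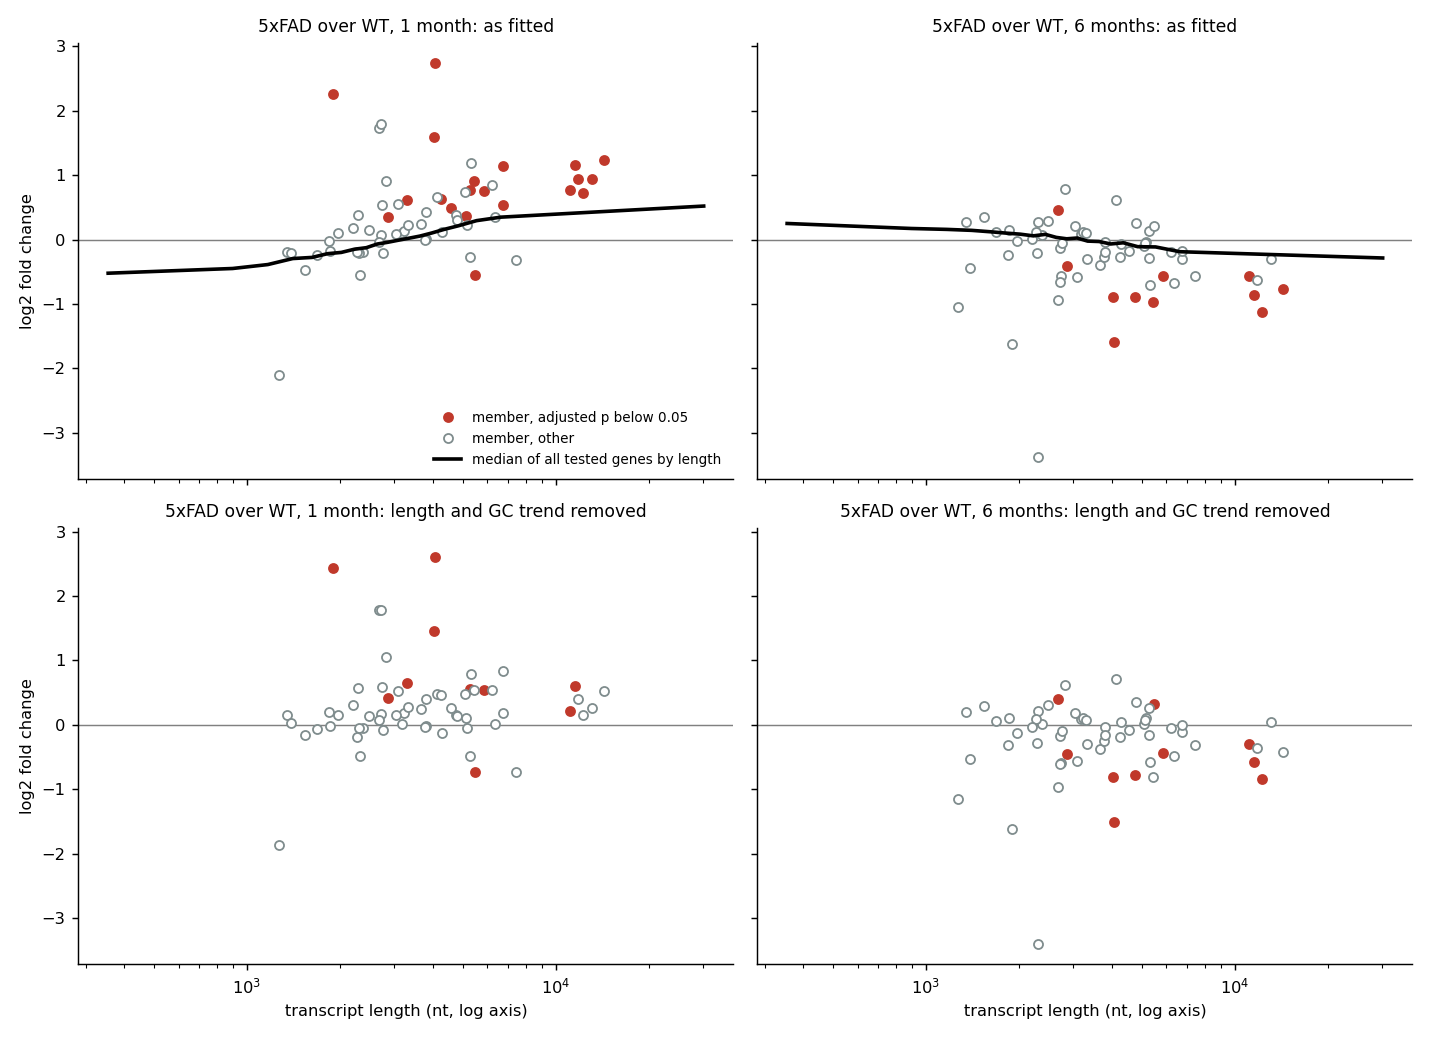
Log2 fold change of 5xFAD over WT against transcript length (nt, log axis) at 1 month (left) and 6 months (right), as fitted (top) and after removal of each library's length and GC trend (bottom); points are the 62 tested potassium channel genes and the line is the median of all tested genes in 20 length bins. In the top panels the line rises with length at 1 month and falls at 6 months; in the bottom panels the longest channel genes move towards 0, while Kcnh5, Kcna1 and Kcna3 near the top left panel's upper edge change little.

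Kcnh5, a voltage-gated channel of the ether-a-go-go family, had the smallest p of all channel genes for the change with age (ENSMUSG00000034402, chromosome 12, 74897220 to 75177332, minus strand, GRCm38). At 1 month Kcnh5 read 5.29, 2.52 and 3.68 CPM in WT and 24.1, 25.8 and 27.7 CPM in 5xFAD. At 6 months it read 19.1, 21.6 and 10.1 CPM in WT and 4.09, 7.36 and 5.40 CPM in 5xFAD. All 1-month 5xFAD libraries lay above every WT library of either age, and all 6-month 5xFAD libraries lay below the 6-month WT libraries, of which replicate 3 was the lowest. The log2 fold change was 2.75 ± 0.30, adjusted p 2.71e-06, at 1 month and -1.59 ± 0.29, adjusted p 0.00163, at 6 months, and the change between ages was -4.34 ± 0.41 (adjusted p 1.97e-07). Length-adjusted values were 2.60 and -1.50, and every call held under each alternative setting. In WT the gene rose with age (2.14 ± 0.30, adjusted p 9.06e-05) and in 5xFAD it fell (-2.20 ± 0.29, adjusted p 1.20e-05).

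To show the sequence in front of genes that moved together, the 250 bases before the RefSeq start (GRCm38.p6) are printed for Kcnh5 and for the other genes among the 6 with the smallest p for the change with age whose RefSeq start lies within 50 bases of the most abundant transcript's start. 67 of the 88 members have a RefSeq promoter entry; Kcnk9 and Kcna1 are named only, and the Kcnma1 entry starts elsewhere. Capitals mark the GC box, GGGCGG on either strand (CCGCCC where it lies on the other strand). The windows are chr12:75177333-75177582 (minus strand), chr3:107101317-107101566 (plus strand) and chr7:46396218-46396467 (plus strand), read 5′ to 3′ along the gene; the Kcna2 window lies within the annotated gene, whose outermost start is further upstream:
Kcnh5: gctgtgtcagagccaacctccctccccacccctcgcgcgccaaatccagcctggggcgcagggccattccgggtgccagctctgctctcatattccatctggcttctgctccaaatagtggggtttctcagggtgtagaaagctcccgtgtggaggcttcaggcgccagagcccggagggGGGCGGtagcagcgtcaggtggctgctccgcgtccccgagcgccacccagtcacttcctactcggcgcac
Kcna2: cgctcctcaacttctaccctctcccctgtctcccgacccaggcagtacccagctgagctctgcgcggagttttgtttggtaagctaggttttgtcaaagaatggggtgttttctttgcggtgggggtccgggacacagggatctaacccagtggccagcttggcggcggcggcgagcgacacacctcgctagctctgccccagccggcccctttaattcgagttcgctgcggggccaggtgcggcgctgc
Kcnc1: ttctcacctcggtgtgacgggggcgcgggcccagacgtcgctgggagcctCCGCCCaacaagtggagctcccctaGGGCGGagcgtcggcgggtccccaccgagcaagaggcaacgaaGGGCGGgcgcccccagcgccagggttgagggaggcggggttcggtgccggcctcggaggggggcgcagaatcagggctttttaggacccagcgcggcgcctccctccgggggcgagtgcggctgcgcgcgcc
The GC box was found 1 time in the Kcnh5 window, 3 times in the Kcnc1 window and 0 times in the Kcna2 window, and 32.7% of all RefSeq promoter windows of this length hold it. None of the windows held the TATA box TATAAA (12.4% of all windows), the photoreceptor factor motif TAATCC (6.25%) or the cyclic AMP response element TGACGTCA (1.55%), on either strand and with no overlap between these motifs. A match or its absence describes these letters only.

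Of the other ether-a-go-go genes, Kcnh1, Kcnh6 and Kcnh7 also rose at 1 month, so that 4 of 6 tested members rose and none fell, with a summed level of 136 ± 5.16 CPM in WT and 214 ± 3.74 CPM in 5xFAD. Kcnh7 read 28.2, 16.7 and 22.9 CPM in WT and 39.0, 49.3 and 41.9 CPM in 5xFAD at 1 month, and 34.5, 32.4 and 24.4 CPM in WT and 23.3, 25.8 and 24.9 CPM in 5xFAD at 6 months. Its 1-month genotypes were separate, with 5xFAD high, and at 6 months the lowest WT library lay within the 5xFAD range. Kcnh7 had a log2 fold change of 0.94 ± 0.18, adjusted p 0.000654, Kcnh1 of 1.13 ± 0.31, adjusted p 0.0128, and Kcnh6 of 0.61 ± 0.19, adjusted p 0.0248, and the change between ages was -1.24 ± 0.25 for Kcnh7 (adjusted p 0.000796; -0.21 and 0.540 length-adjusted). Kcnh7 shares 696 exonic bases with Gca on the opposite strand (22.3 CPM), and the library kit does not mark strand, so that reads there cannot be told apart. Length-adjusted, Kcnh6 kept its call (0.65, adjusted p 0.0101), whereas Kcnh1 (0.83, adjusted p 0.0724) and Kcnh7 (0.26, adjusted p 0.281) did not. The call of Kcnh1 ended without 1-month WT replicate 2 or 1-month 5xFAD replicate 3 (adjusted p 0.0720 to 0.0858), and that of Kcnh6 without 1-month WT replicate 1 or 3 or 1-month 5xFAD replicate 1 or 2 (adjusted p 0.0522 to 0.0878). The Kcnh1 change between ages was -1.32 ± 0.44, adjusted p 0.0295, and its call ended with length adjustment (-0.84, adjusted p 0.178).

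Kcnh2, whose human counterpart carries the rapid delayed rectifier of the heart, was the most abundant of the family per length. Its 1-month levels were 64.2, 84.4 and 74.0 CPM in WT and 87.1, 85.9 and 88.0 CPM in 5xFAD, and its 6-month levels were 83.6, 87.7 and 88.4 CPM in WT and 84.5, 59.0 and 66.6 CPM in 5xFAD. The genotypes did not overlap at 1 month, when WT was lower, and overlapped at 6 months, when 5xFAD replicate 1 lay within the WT range. Neither difference passed the test (0.23 ± 0.12, adjusted p 0.201, and -0.31 ± 0.12, adjusted p 0.142), while the change between ages did (-0.54 ± 0.17, adjusted p 0.0253). That call ended without 6-month 5xFAD replicate 2 (adjusted p 0.0718). Kcnh8 passed in no comparison, and Kcnh3 and Kcnh4 were below the filter.

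The Kcna genes encode the low-threshold delayed rectifiers of axons and terminals. Of 6 tested members, 5 rose at 1 month, 4 fell at 6 months, and the change between ages was negative in all 6; the summed level went from 185 ± 13.2 to 337 ± 14.7 CPM at 1 month and from 279 ± 27.8 to 183 ± 14.2 CPM at 6 months, WT before 5xFAD. Kcna2, an axonal subunit found beside nodes of Ranvier (ENSMUSG00000040724, chromosome 3, 107101146 to 107115005), read 78.7, 58.6 and 77.7 CPM in WT and 154, 156 and 171 CPM in 5xFAD at 1 month. At 6 months Kcna2 read 129, 132 and 85.2 CPM in WT and 65.8, 56.2 and 67.9 CPM in 5xFAD. The genotypes did not overlap at either age, with 5xFAD high at 1 month and low at 6 months, and 6-month WT replicate 3 was well below its group. Its log2 fold change was 1.16 ± 0.14, adjusted p 1.41e-05, at 1 month and -0.87 ± 0.14, adjusted p 0.000933, at 6 months, with a change between ages of -2.03 ± 0.20 (adjusted p 5.53e-07). The length-adjusted values were 0.61 (adjusted p 9.59e-05) and -0.58 (adjusted p 0.000335). Kcna2 is one of the longest members, at 11528 nt. Its 6-month value was -0.77 without the 3 rRNA-rich libraries, which leaves 1 library of 6-month 5xFAD.

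Kcna1, the usual partner of Kcna2 in axons and the episodic ataxia gene of humans (ENSMUSG00000047976, chromosome 6, 126640397 to 126646384), was lower in level but moved further. Its 1-month levels were 6.72, 5.57 and 6.25 CPM in WT and 16.5, 18.6 and 21 CPM in 5xFAD. Its 6-month levels were 12.9, 15.6 and 11 CPM in WT and 9.47, 5.17 and 6.82 CPM in 5xFAD. Again no library of one genotype reached the range of the other at either age. Kcna1 thus had log2 fold changes of 1.59 ± 0.25, adjusted p 9.40e-05, and -0.89 ± 0.24, adjusted p 0.0288, and the change between ages was -2.48 ± 0.34 (adjusted p 1.49e-05); length adjustment left 1.45 and -0.81. The 6-month call ended without 6-month WT replicate 1 or 2 or 6-month 5xFAD replicate 2 (adjusted p 0.0889 to 0.182).

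Kcna6 read 34.3, 36.8 and 45 CPM in WT and 62.6, 74.0 and 61.4 CPM in 5xFAD at 1 month, and 49.2, 44.4 and 53.1 CPM in WT and 35.1, 42.1 and 43.3 CPM in 5xFAD at 6 months. It was higher in every 5xFAD library at 1 month and lower in every 5xFAD library at 6 months. The 1-month difference passed (0.77 ± 0.13, adjusted p 0.000299), the 6-month difference did not (-0.28 ± 0.13, adjusted p 0.227), and the change between them did (-1.05 ± 0.19, adjusted p 0.000256). Kcna5, the most abundant Kcna gene per length, read 55.1, 62.2 and 58.4 CPM in WT and 69.6, 77.6 and 76.7 CPM in 5xFAD at 1 month, and 75.3, 94.9 and 87.1 CPM in WT and 71.5, 54.9 and 66.2 CPM in 5xFAD at 6 months. Its genotypes did not overlap at either age, 5xFAD being high at 1 month and low at 6 months. Its log2 fold changes were 0.35 ± 0.12, adjusted p 0.0396, and -0.42 ± 0.12, adjusted p 0.0329. Its 1-month call ended without 1-month WT replicate 1, 2 or 3 or 1-month 5xFAD replicate 2 or 3 (adjusted p 0.0581 to 0.131), and its 6-month call without 6-month WT replicate 2 or 3 or 6-month 5xFAD replicate 2 (adjusted p 0.0534 to 0.188).

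Kcna3, a subunit shared by neurons and immune cells, was a low-count gene that read 2.77, 0.270 and 0.942 CPM in WT and 8.07, 5.80 and 5.38 CPM in 5xFAD at 1 month. The genotypes did not overlap there (2.26 ± 0.61, adjusted p 0.0106), and the change between ages was -3.89 ± 0.86 (adjusted p 0.00175). The summed microglia markers were lower in 1-month 5xFAD (17.1 to 22.3 CPM) than in WT (24.9 to 30.5 CPM). None of these 6 genes passed in a genotype comparison, and the part of immune cells in the Kcna3 values was not tested. The Kcna3 call at 1 month ended without 1-month WT replicate 2 or 1-month 5xFAD replicate 1 (adjusted p 0.0519 to 0.0524). Kcna4, an inactivating subunit, fell only at 6 months among the genotype comparisons (-0.89 ± 0.25, adjusted p 0.0371; 0.38 ± 0.25 and adjusted p 0.315 at 1 month), with a change between ages of -1.27 ± 0.36 (adjusted p 0.0114). Its 6-month call ended without 1-month 5xFAD replicate 3, 6-month WT replicate 1 or 2 or 6-month 5xFAD replicate 1 (adjusted p 0.0508 to 0.204). Its call for the change between ages ended with length adjustment (-0.93, adjusted p 0.0655) and without the 3 rRNA-rich libraries (-1.03, adjusted p 0.0832).

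**Figure D4:**
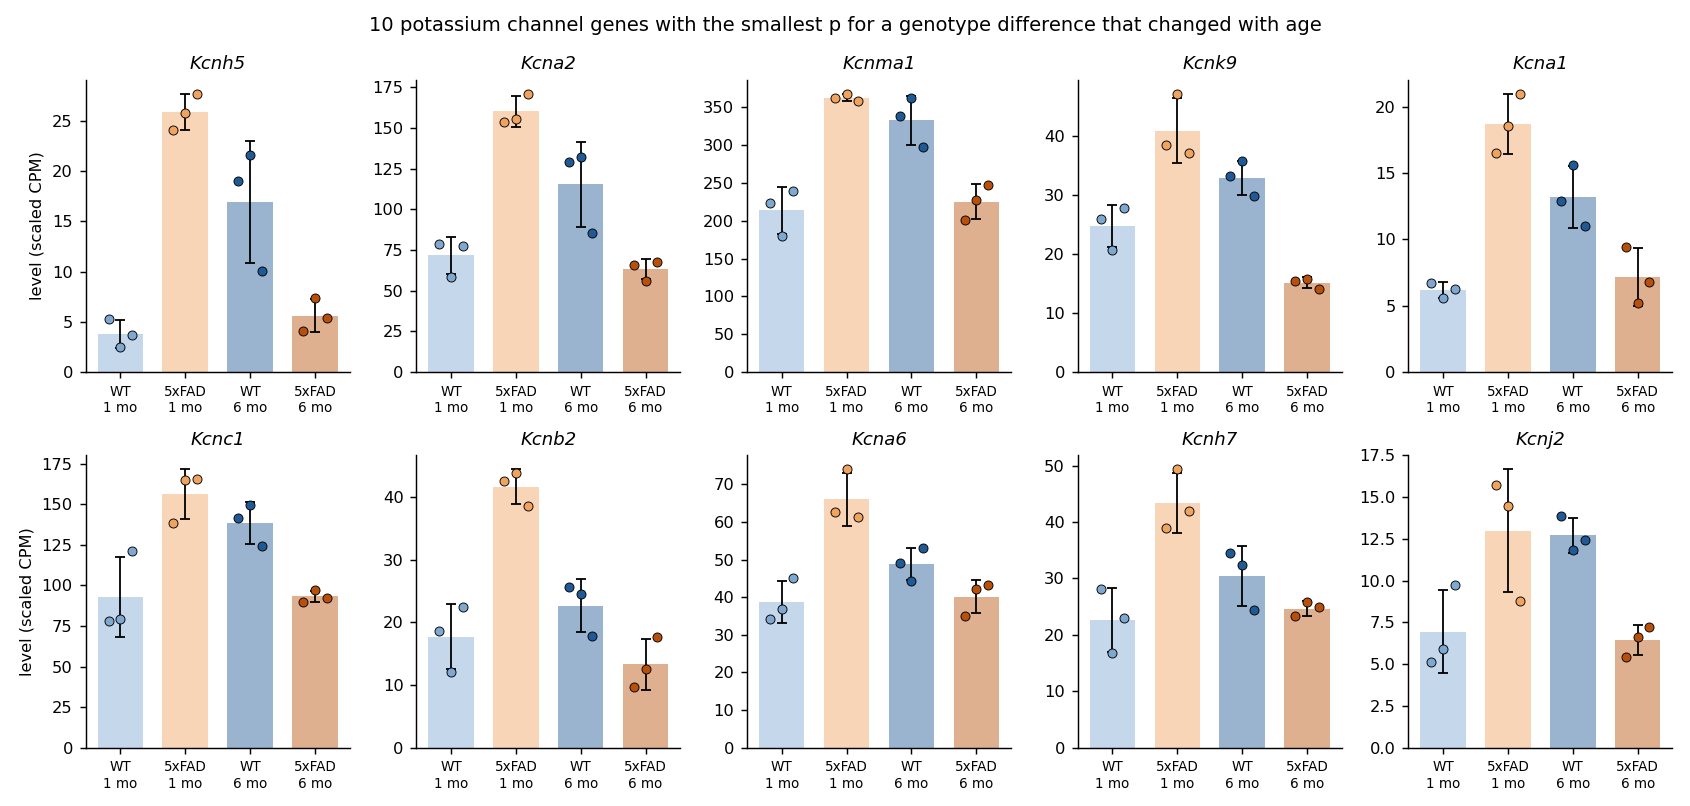
Levels (CPM, linear axis from 0) in each library of the 10 potassium channel genes with the smallest p for the change of the genotype difference with age; points are libraries, bars are group means and error bars are SDs (n = 3). Except in Kcnj2, whose ranges overlap, the 1-month 5xFAD libraries are above the 1-month WT libraries, and, except in Kcnh7, the 6-month 5xFAD libraries are below the 6-month WT libraries.

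Kcnb2 encodes a slow delayed rectifier of the kind that carries sustained current in many neurons (ENSMUSG00000092083, chromosome 1, 15287254 to 15723750), and it read 18.7, 12.1 and 22.4 CPM in WT and 42.5, 43.9 and 38.6 CPM in 5xFAD at 1 month, and 25.6, 24.6 and 17.8 CPM in WT and 9.64, 12.6 and 17.7 CPM in 5xFAD at 6 months. 5xFAD was above WT in every library at 1 month and below WT in every library at 6 months, by a small margin between 6-month WT replicate 3 and 5xFAD replicate 3. The log2 fold changes were 1.23 ± 0.22, adjusted p 0.000373, and -0.76 ± 0.22, adjusted p 0.0396, with a change between ages of -1.99 ± 0.31 (adjusted p 5.55e-05). Kcnb2 is the longest tested member at 14303 nt, and length adjustment ended both genotype calls (0.52, adjusted p 0.0543, and -0.42, adjusted p 0.167) but not that of the change between ages (-0.94, adjusted p 0.00937). The 6-month call also ended without 1-month 5xFAD replicate 1, 2 or 3, 6-month WT replicate 1 or 2 or 6-month 5xFAD replicate 1 or 2 (adjusted p 0.0526 to 0.165). It ended too without the 3 rRNA-rich libraries (-0.36, adjusted p 0.517).

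The Kcnc channels open and close fast and let interneurons fire at high rates. Kcnc1 and Kcnc2 rose at 1 month, Kcnc1 fell at 6 months, and Kcnc4 passed in neither comparison. Kcnc1, the most abundant of these 3 per length (ENSMUSG00000058975, chromosome 7, 46396497 to 46438704), read 78.1, 79.3 and 121 CPM in WT and 139, 165 and 165 CPM in 5xFAD at 1 month. At 6 months Kcnc1 stood at 141, 149.8 and 124 CPM in WT and 90.1, 97.2 and 92.5 CPM in 5xFAD. The genotypes were separate at both ages, although 1-month WT replicate 3 was far above the other WT libraries. The log2 fold changes were 0.75 ± 0.13, adjusted p 0.000388, and -0.57 ± 0.13, adjusted p 0.0119, the change between ages was -1.32 ± 0.19 (adjusted p 2.37e-05), and the length-adjusted values were 0.54 and -0.43. The 6-month call ended without 6-month WT replicate 2 or 6-month 5xFAD replicate 1 (adjusted p 0.0511 to 0.0684).

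Kcnc2 rose at 1 month (0.49 ± 0.12, adjusted p 0.00442), and this call ended with length adjustment (0.26, adjusted p 0.123). The change between ages was -0.67 ± 0.16 (adjusted p 0.00458) for Kcnc2, a call that also ended with length adjustment (-0.34, adjusted p 0.125). For Kcnc4 it was -0.65 ± 0.28 (adjusted p 0.0877).

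Among the Kcnd genes, which encode the fast inactivating A-type channels, Kcnd3 rose at 1 month and Kcnd1 and Kcnd2 passed in no genotype comparison. Kcnd3 read 90.9, 64.2 and 94.7 CPM in WT and 112, 129 and 120.4 CPM in 5xFAD at 1 month, and 98.2, 104 and 95.2 CPM in WT and 66.4, 82.8 and 91.9 CPM in 5xFAD at 6 months. WT replicate 2 was the lowest at 1 month, the genotypes did not overlap at either age, and only the 1-month difference passed. Kcnd3 had log2 fold changes of 0.53 ± 0.13, adjusted p 0.00554, and -0.30 ± 0.13, adjusted p 0.181, and the change between ages was -0.83 ± 0.18 (adjusted p 0.00184). Length adjustment ended the 1-month call (0.18, adjusted p 0.328) and that of the change between ages (-0.29, adjusted p 0.204), and leaving out 1-month WT replicate 2 (adjusted p 0.0531) ended the 1-month call too. The change between ages was -0.48, adjusted p 0.0506, without the 3 rRNA-rich libraries.

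Silent subunits make no channel alone and assemble with Kcnb subunits. Kcnv2, a photoreceptor subunit and the human gene of a cone dystrophy with supernormal rod response, was the most abundant of them. It read 603, 565 and 537 CPM in WT and 786, 703 and 712 CPM in 5xFAD at 1 month, and 694, 668 and 620.4 CPM in WT and 589, 587 and 729 CPM in 5xFAD at 6 months. All 1-month 5xFAD libraries were above the WT libraries, and the 6-month groups overlapped. Kcnv2 thus rose at 1 month (0.37 ± 0.09, adjusted p 0.00606) and did not pass at 6 months (-0.06 ± 0.09, adjusted p 0.791), with a change between ages of -0.43 ± 0.13 (adjusted p 0.0178). After length adjustment the 1-month value was 0.11 (adjusted p 0.352) and the change between ages -0.04 (adjusted p 0.840). The latter call also ended without 1-month 5xFAD replicate 1 or 6-month 5xFAD replicate 2 (adjusted p 0.0557 to 0.0610) and without the 3 rRNA-rich libraries (-0.22, adjusted p 0.345). Beside this, summed rod markers were higher in 5xFAD at both ages (53989.5 to 57796 against 48356 to 51755 CPM at 1 month and 52986 to 56911 against 44349.8 to 47919.6 CPM at 6 months). Cone markers were lower at 1 month and higher at 6 months as given above, and the part of both was not tested.

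The other 6 tested silent genes passed in no genotype comparison. Kcng4 read 20.4, 20.9 and 18.1 CPM in WT and 18.8, 22.2 and 19 CPM in 5xFAD at 1 month, and 17.3, 18.9 and 17.5 CPM in WT and 21.6, 17.2 and 13.3 CPM in 5xFAD at 6 months, and its groups overlapped at both ages. Kcns2 was 8.66, 5.39 and 3.51 CPM in WT and 8.77, 11.3 and 9.15 CPM in 5xFAD at 1 month, and 7.48, 7.54 and 7.31 CPM in WT and 5.63, 5.26 and 9.87 CPM in 5xFAD at 6 months. Its 1-month 5xFAD libraries were all above WT, although the lowest was close to the highest WT library, and the difference did not pass (0.73 ± 0.32, adjusted p 0.113). Kcnf1 stayed at a few CPM throughout: 5.97, 4.22 and 1.71 CPM in WT and 5.82, 4.69 and 4.22 CPM in 5xFAD at 1 month, and 3.10, 6.16 and 4.07 CPM in WT and 2.05, 7.20 and 6.67 CPM in 5xFAD at 6 months, with overlapping groups. Kcns1, Kcns3 and Kcng2 were below 3 CPM in every library.

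Kcnq3 is a subunit of the M-current, which muscarinic receptors close to raise excitability, and it was the more abundant of Kcnq3 and Kcnq5. Kcnq3 read 16.2, 7.46 and 13.4 CPM in WT and 26.5, 21.6 and 23.6 CPM in 5xFAD at 1 month, and 21.4, 20.5 and 17.7 CPM in WT and 6.91, 12.9 and 18.6 CPM in 5xFAD at 6 months. The 5xFAD libraries were all above WT at 1 month, and at 6 months 5xFAD replicate 3 lay within the WT range while the other two were below it. Kcnq3 rose at 1 month (0.95 ± 0.28, adjusted p 0.0213), did not pass at 6 months (-0.62 ± 0.28, adjusted p 0.199), and its change between ages passed (-1.57 ± 0.40, adjusted p 0.00601). After length adjustment neither call remained (0.39, adjusted p 0.358, at 1 month and -0.76, adjusted p 0.142, for the change between ages). The 1-month call also ended without 1-month WT replicate 2 or 1-month 5xFAD replicate 1 or 3 (adjusted p 0.0555 to 0.113). The change between ages was -0.78, adjusted p 0.0822, without the 3 rRNA-rich libraries. Kcnq5 was below 2 CPM in every library and passed in no comparison.

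Kcnma1 encodes the large-conductance channel opened jointly by calcium and voltage, which shapes transmitter release in inner retinal neurons (ENSMUSG00000063142, chromosome 14, 23289431 to 24014491). At 1 month Kcnma1 read 223, 179 and 239 CPM in WT and 362, 368 and 359 CPM in 5xFAD. At 6 months Kcnma1 read 339, 362 and 297 CPM in WT and 202, 227 and 247 CPM in 5xFAD. 5xFAD libraries were all above WT at 1 month and all below WT at 6 months, and the 1-month 5xFAD libraries differed little from 6-month WT replicates 1 and 2. The log2 fold changes were 0.76 ± 0.10, adjusted p 2.75e-05, and -0.56 ± 0.10, adjusted p 0.00221, with a change between ages of -1.33 ± 0.15 (adjusted p 1.41e-06). Length adjustment brought them to 0.22 (adjusted p 0.0432) and -0.30 (adjusted p 0.00878), both still called. Without the 3 rRNA-rich libraries, which leaves 1 library of 6-month 5xFAD, the 6-month log2 fold change of Kcnma1 was -0.43. Its regulatory beta subunits Kcnmb2 and Kcnmb4 passed in neither genotype comparison (-0.19 ± 0.29, adjusted p 0.706, and 0.27 ± 0.28, adjusted p 0.657, for Kcnmb4).

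Of the small-conductance calcium-activated channels, which carry the afterhyperpolarisation, Kcnn2 was 18.9, 11.2 and 12.8 CPM in WT and 22.0, 19.5 and 21.2 CPM in 5xFAD at 1 month, and 20.0, 22.9 and 17.4 CPM in WT and 11, 11.8 and 17.8 CPM in 5xFAD at 6 months. The 1-month groups were separate by a small margin, with WT replicate 1 close to 5xFAD, and at 6 months 5xFAD replicate 3 was just above the lowest WT library. Neither difference passed (0.54 ± 0.22, adjusted p 0.0844, and -0.57 ± 0.22, adjusted p 0.123), but the change between ages did (-1.11 ± 0.31, adjusted p 0.0100), also after length adjustment (-1.18, adjusted p 0.00728). That call ended without the 3 rRNA-rich libraries (-0.56, adjusted p 0.258). Kcnn1 and Kcnn3 passed in no comparison. The pH-gated channel gene Kcnu1, known from sperm, read 2.61, 3.14 and 1.97 CPM in WT and 2.00, 1.29 and 3.41 CPM in 5xFAD at 1 month, and 1.82, 2.09 and 2.45 CPM in WT and 1.54, 0.647 and 2.48 CPM in 5xFAD at 6 months, and its groups overlapped.

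Kcnt1 encodes a channel opened by intracellular sodium (ENSMUSG00000058740, chromosome 2, 25863734 to 25918273), and it went the other way from most of the family. At 1 month Kcnt1 read 69.2, 69.3 and 67.4 CPM in WT and 45.5, 42.8 and 52.9 CPM in 5xFAD. At 6 months the values were 70.3, 64.0 and 54.5 CPM in WT and 73.5, 78.6 and 66.2 CPM in 5xFAD. Every 1-month 5xFAD library was below every WT library, and the 6-month groups overlapped, with 5xFAD replicates 1 and 2 above all WT libraries. Kcnt1 fell at 1 month (-0.54 ± 0.12, adjusted p 0.00237) and did not pass at 6 months (0.21 ± 0.12, adjusted p 0.328); the change between ages was 0.75 ± 0.17 (adjusted p 0.00198). At 5477 nt it is longer than the median member, and length adjustment enlarged its values to -0.74 at 1 month and 0.33 at 6 months (adjusted p 0.0456, then past the threshold). Kcnt2 was detected at no more than 2.58 CPM and passed in neither genotype comparison.

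The inward rectifiers hold the resting potential and, in the G-protein-gated subfamily, answer inhibitory receptors. Of 9 tested Kcnj genes, Kcnj2 and Kcnj5 rose at 1 month, and at 6 months Kcnj2 fell and Kcnj14 rose. Kcnj14 (ENSMUSG00000058743, chromosome 7, 45816460 to 45824782) read 534, 668 and 539.5 CPM in WT and 563, 565 and 561 CPM in 5xFAD at 1 month. At 6 months Kcnj14 read 466, 471 and 531 CPM in WT and 727, 705 and 582 CPM in 5xFAD. The 1-month groups overlapped and the 5xFAD libraries there were almost equal, whereas at 6 months all 5xFAD libraries were above WT, replicate 3 by the smallest margin. Kcnj14 had log2 fold changes of -0.04 ± 0.10, adjusted p 0.797, and 0.46 ± 0.10, adjusted p 0.00682, and the change between ages was 0.50 ± 0.14 (adjusted p 0.00995). Length adjustment left 0.40 at 6 months (adjusted p 0.000581). The 6-month call ended without 6-month WT replicate 1 or 2 or 6-month 5xFAD replicate 1 (adjusted p 0.0559 to 0.0646), and the value without the 3 rRNA-rich libraries was 0.25 (adjusted p 0.283). The call for the change between ages ended without 6-month 5xFAD replicate 1 (adjusted p 0.0529) and without those 3 libraries (0.19, adjusted p 0.402).

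Kcnj2, the strong inward rectifier, rose at 1 month (0.90 ± 0.28, adjusted p 0.0229) and fell at 6 months (-0.98 ± 0.27, adjusted p 0.0334). It is a low-count gene that read 5.13, 5.93 and 9.76 CPM in WT and 15.7, 14.4 and 8.79 CPM in 5xFAD at 1 month, and 13.9, 11.8 and 12.5 CPM in WT and 5.46, 6.63 and 7.24 CPM in 5xFAD at 6 months. At 1 month the lowest 5xFAD library was below the highest WT library, and at 6 months all 5xFAD libraries were below WT. The 1-month call ended without 1-month WT replicate 1 or 2 or 1-month 5xFAD replicate 1 or 2 (adjusted p 0.0892 to 0.119), and the 6-month call without 6-month WT replicate 1, 2 or 3 or 6-month 5xFAD replicate 1 or 2 (adjusted p 0.0502 to 0.136). Length adjustment ended both (0.54, adjusted p 0.221, and -0.82, adjusted p 0.0613), but the change between ages held under every alternative (-1.88 ± 0.39, adjusted p 0.000992). Among the G-protein-gated genes, Kcnj5 rose at 1 month (0.62 ± 0.22, adjusted p 0.0445), Kcnj6 passed for the change between ages and in neither genotype comparison (-2.68 ± 0.82, adjusted p 0.0317), and Kcnj3 and Kcnj9 passed in neither genotype comparison nor for the change between ages. The Kcnj5 call at 1 month ended without 1-month WT replicate 2 or 3, 1-month 5xFAD replicate 1, 2 or 3 or 6-month WT replicate 1, 2 or 3 (adjusted p 0.0508 to 0.150), and length adjustment left 0.46 (adjusted p 0.176). Kcnj6 lost its call without 1-month WT replicate 2, 1-month 5xFAD replicate 1, 2 or 3, 6-month WT replicate 1 or 2 or 6-month 5xFAD replicate 2 or 3 (adjusted p 0.0528 to 0.0863). It also lost it with length adjustment (-2.74, adjusted p 0.0515) and without the 3 rRNA-rich libraries (-3.22, adjusted p 0.110). The Kcnj5 change between ages was -0.90 ± 0.30, adjusted p 0.0319 (-0.65, adjusted p 0.139, length-adjusted).

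Kcnj13, the inward rectifier of the pigment epithelium, read 1.34, 1.17 and 3.0 CPM in WT and 0, 0.460 and 0.808 CPM in 5xFAD at 1 month, beside the lower pigment epithelium markers given above, whose part was not tested. The genotypes did not overlap, but the difference did not pass (-2.10 ± 1.11, adjusted p 0.196). Kcnj13 shares 623 exonic bases with the far more abundant Gigyf2 on the opposite strand (146 CPM), so these counts cannot be assigned with certainty.

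The two-pore channels set the leak conductance. Of 7 tested Kcnk genes, Kcnk9 was the only one that passed at either age; the summed level of the subfamily was 80.5 ± 1.72 and 109 ± 11.5 CPM at 1 month and 108 ± 1.06 and 86.5 ± 1.55 CPM at 6 months, WT first. Kcnk9, an acid-sensitive leak channel (ENSMUSG00000036760, chromosome 15, 72501089 to 72546340), read 25.9, 20.8 and 27.7 CPM in WT and 38.5, 47.2 and 37.1 CPM in 5xFAD at 1 month. At 6 months Kcnk9 read 33.2, 35.7 and 29.9 CPM in WT and 15.4, 15.8 and 14.1 CPM in 5xFAD. The 6-month 5xFAD libraries lay close together, below all other libraries of the gene. The log2 fold changes were 0.72 ± 0.16, adjusted p 0.00203, and -1.12 ± 0.16, adjusted p 0.000189, and the change between ages was -1.85 ± 0.22 (adjusted p 3.07e-06). Length adjustment ended the 1-month call (0.15, adjusted p 0.572) and left -0.84 at 6 months (adjusted p 0.000576), a call that held under every alternative.

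Kcnk1, the most abundant two-pore gene per length, read 25.5, 28.5 and 25.6 CPM in WT and 29.7, 35.9 and 24.8 CPM in 5xFAD at 1 month, and 40.2, 36.4 and 42.3 CPM in WT and 32.7, 43.5 and 42.8 CPM in 5xFAD at 6 months. Its genotypes overlapped at both ages, and the older groups were higher. The age difference passed in WT (0.58 ± 0.15, adjusted p 0.0179) but not in 5xFAD (0.40 ± 0.16, adjusted p 0.0662); the difference between these age effects did not pass (-0.18 ± 0.22, adjusted p 0.60). The WT call ended without 6-month WT replicate 1 or 3 (adjusted p 0.050 to 0.0504). Kcnk3, another acid-sensitive leak channel, passed for the change between ages and in neither genotype comparison (-0.62 ± 0.23, adjusted p 0.0472). That call ended without 1-month WT replicate 2 or 3, 1-month 5xFAD replicate 1, 2 or 3, 6-month WT replicate 2 or 3 or 6-month 5xFAD replicate 2 or 3 (adjusted p 0.0502 to 0.108). It also ended with length adjustment (-0.56, adjusted p 0.0893), with the loosest filter (-0.66, adjusted p 0.0576) and without the 3 rRNA-rich libraries (-0.70, adjusted p 0.0665). 229 exonic bases of Kcnk3 are shared with Gm9899 (7.85 CPM).

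None of the 9 tested auxiliary subunit genes (Kcnab, Kcnip and Kcne families) passed in a genotype comparison or for the change between ages; their median log2 fold change was -0.19 at 1 month and 0.12 at 6 months, and they were shorter than the rest, with a median length of 2303 nt. Kcnab2 read 262, 298 and 291 CPM in WT and 292, 302 and 335 CPM in 5xFAD at 1 month, and 233, 274 and 277 CPM in WT and 264, 295 and 291 CPM in 5xFAD at 6 months, with overlapping groups. The calcium-binding Kcnip1, a partner of Kcnd channels, was 53.7, 46.1 and 32.6 CPM in WT and 34.9, 42.8 and 39.7 CPM in 5xFAD at 1 month, and 37.2, 40.9 and 46.3 CPM in WT and 55.1, 39.9 and 43.4 CPM in 5xFAD at 6 months, again with overlap. Kcne2, a single-span subunit, read 69.2, 62.6 and 52.7 CPM in WT and 60.2, 48.7 and 47.6 CPM in 5xFAD at 1 month, and 45.9, 50.2 and 48.9 CPM in WT and 53.0, 49.6 and 54.8 CPM in 5xFAD at 6 months, and its groups overlapped at both ages. Kcnip2 was the member that fell with age in WT: it read 16.2, 18.1 and 14.6 CPM in WT and 13.2, 13.2 and 15.9 CPM in 5xFAD at 1 month, and 6.13, 8.71 and 9.04 CPM in WT and 11.1, 8.73 and 9.16 CPM in 5xFAD at 6 months. All 6-month libraries of a genotype were below its 1-month libraries, and the difference passed in WT (-1.03 ± 0.22, adjusted p 0.00382) but not in 5xFAD (-0.54 ± 0.22, adjusted p 0.0777), and the difference between these age effects did not pass (0.48 ± 0.31, adjusted p 0.274).

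**Figure D5:**
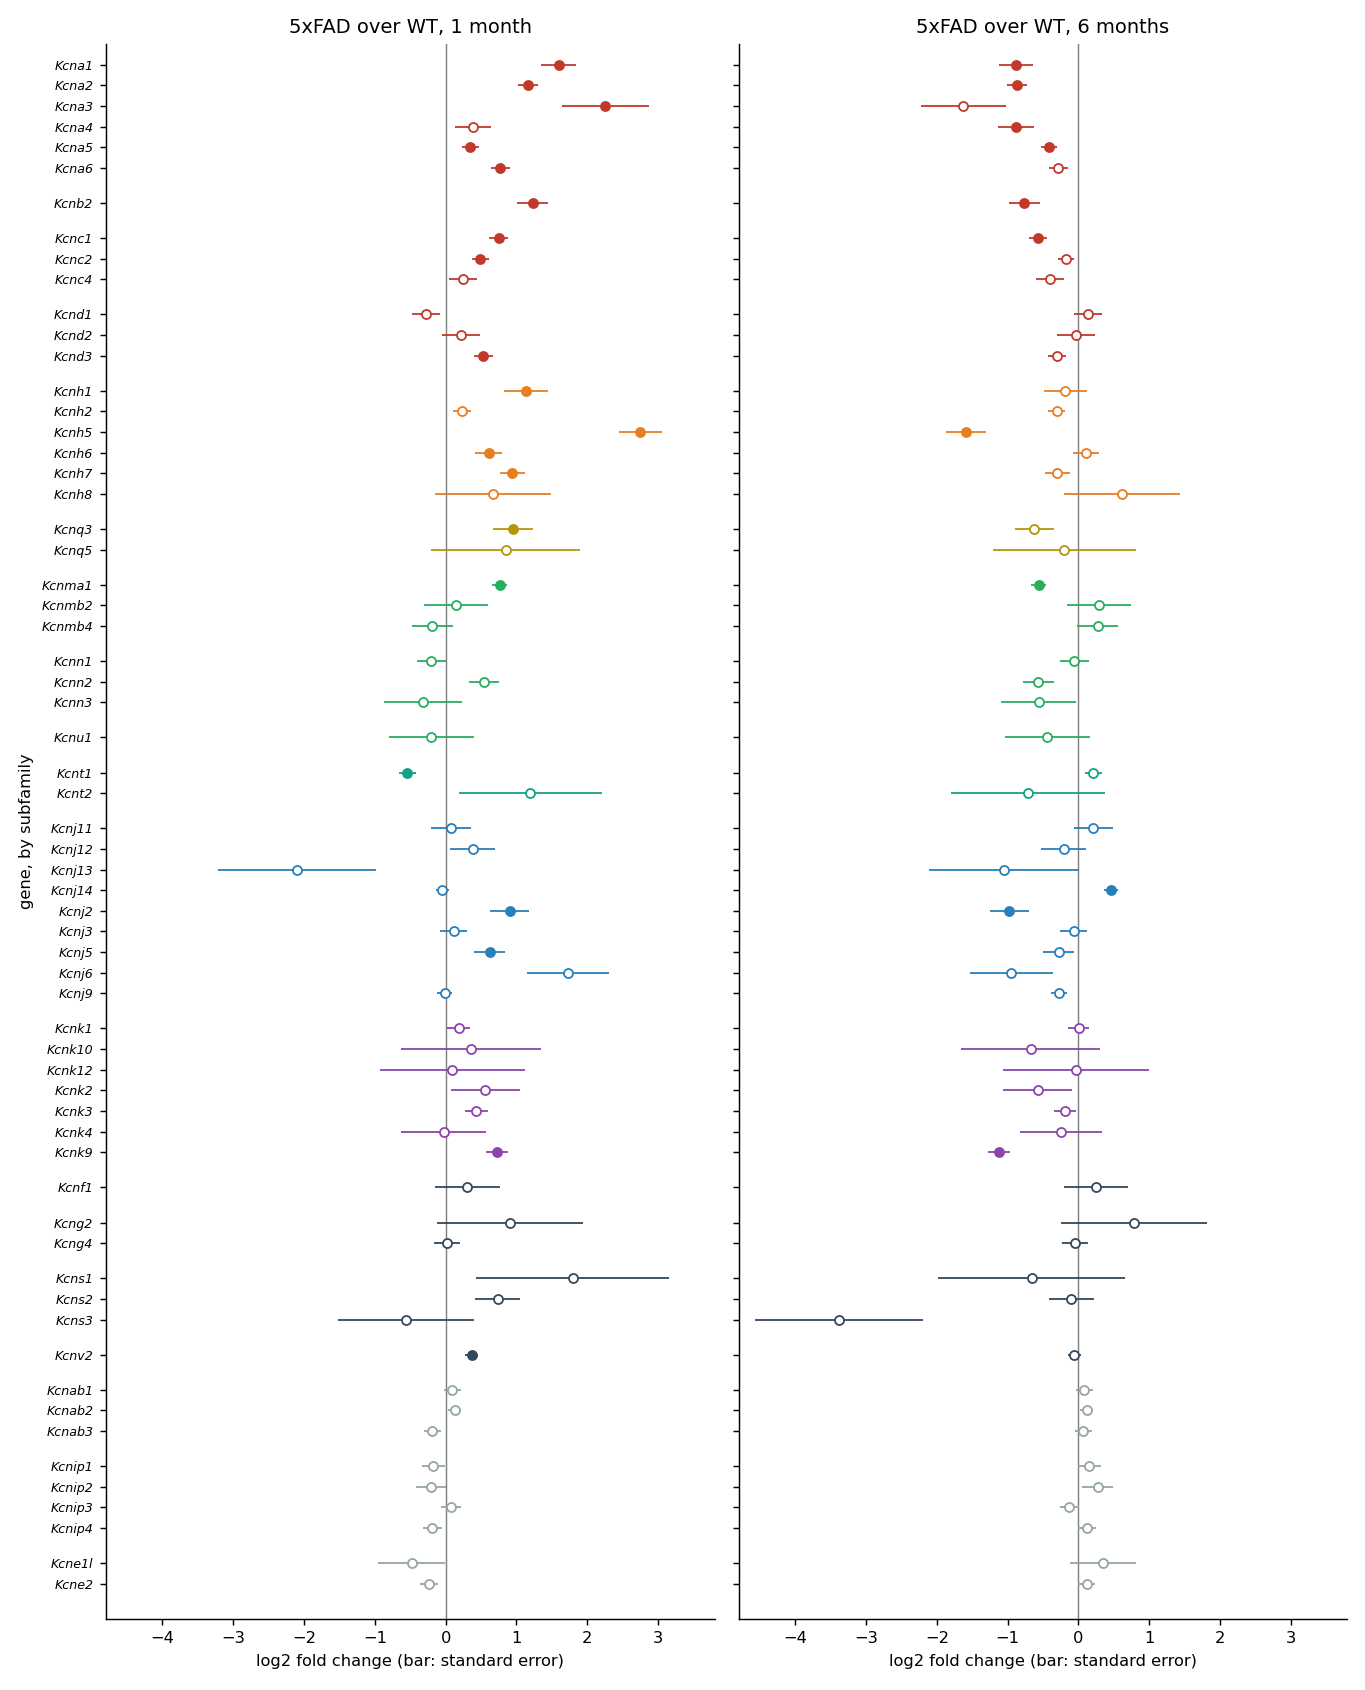
Log2 fold change of 5xFAD over WT with its standard error for each of the 62 tested potassium channel genes, ordered by subfamily, at 1 month (left) and 6 months (right); filled points had an adjusted p below 0.05 and colours mark the channel groups. Filled points at the right in the 1-month panel are most numerous in Kcna and Kcnh; those at the left in the 6-month panel are fewer, 4 of them in Kcna, and the Kcnab, Kcnip and Kcne genes at the bottom have none.

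In all, 33 of the 62 tested genes passed in none of the 5 comparisons. Those not described above were Kcnab1, Kcnab3, Kcne1l, Kcnip3, Kcnip4, Kcnj11, Kcnj12, Kcnk10, Kcnk12, Kcnk2 and Kcnk4, with log2 fold changes of -0.48 (Kcne1l) to 0.56 (Kcnk2) at 1 month and -0.68 (Kcnk10) to 0.35 (Kcne1l) at 6 months.

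Most channel genes that passed the test with age in WT rose, and most of those that passed in 5xFAD fell. Between 1 and 6 months, 8 rose and 1 fell in WT (6.01% and 4.49% of all tested genes), and 1 rose and 19 fell in 5xFAD (10.8% and 12.4%). The median log2 fold change was 0.22 in WT and -0.43 in 5xFAD. These comparisons use the same libraries as the genotype comparisons and are no independent evidence. Marker lists moved with age too. The red blood cell genes went from a mean sum of 112 to 14.9 CPM in WT and from 106 to 26.3 CPM in 5xFAD. In 5xFAD 4 of 5 endothelial and 3 of 5 pericyte genes fell with age, and 4 of 7 cone and 3 of 7 tested pigment epithelium and choroid genes rose. The part of these shifts in the channel values was not tested. In WT the smallest p-values were those of Kcnh5 (2.14 ± 0.30, adjusted p 9.06e-05), Kcnma1 (0.64 ± 0.10, adjusted p 0.000446), Kcna2 (0.69 ± 0.14, adjusted p 0.00349), Kcna5 (0.55 ± 0.12, adjusted p 0.00382), Kcna1 (1.09 ± 0.24, adjusted p 0.00535) and Kcnc1 (0.58 ± 0.13, adjusted p 0.00712), whose values are given above; Kcnj2 and Kcnk1 rose too. The WT call of Kcnc1 ended without 1-month WT replicate 2 (adjusted p 0.0513), and that of Kcnj2 without 1-month WT replicate 1 or 2, 1-month 5xFAD replicate 1 or 2 or 6-month WT replicate 1, 2 or 3 (adjusted p 0.0527 to 0.158). In 5xFAD they were those of Kcna2 (-1.34 ± 0.14, adjusted p 2.61e-06), Kcnk9 (-1.44 ± 0.16, adjusted p 2.67e-06), Kcnh5 (-2.20 ± 0.29, adjusted p 1.20e-05), Kcnb2 (-1.64 ± 0.22, adjusted p 1.89e-05), Kcnma1 (-0.69 ± 0.10, adjusted p 6.08e-05) and Kcna1 (-1.39 ± 0.24, adjusted p 0.000255), all lower, and Kcnt1 rose (0.63 ± 0.12, adjusted p 0.000586); the count there was 13 in place of 20 without 1-month 5xFAD replicate 1. Length-adjusted, 7 rose and 2 fell in WT (5.85% and 6.25% of all genes), and 2 rose and 11 fell in 5xFAD (8.22% and 5.74%), where the call of Kcnma1 (-0.15, adjusted p 0.179) was among those lost.

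In the transcript table, where RSEM shares reads among transcripts of a gene by estimate, 133 of 360 transcripts of these genes were tested, 12 of them annotated as retained-intron transcripts. At 1 month 8 rose and none fell (1.60% and 0.922% of all tested transcripts; 30 had an unadjusted p below 0.05), and at 6 months 1 fell and none rose (0.322% and 0.165%). All were protein-coding. The transcripts with the smallest p at 1 month were Kcnc2-201 (1.80 ± 0.25, adjusted p 0.00920), Kcnh5-201 (2.77 ± 0.40, adjusted p 0.00960), Kcnc1-201 (1.29 ± 0.19, adjusted p 0.0105), Kcna2-201 (1.16 ± 0.18, adjusted p 0.0118), Kcna1-201 (1.65 ± 0.30, adjusted p 0.0210) and Kcnma1-205 (0.62 ± 0.12, adjusted p 0.0270). The transcript that fell at 6 months was Kcnk9-201 (-1.18 ± 0.16, adjusted p 0.0162), and no transcript was called there without 6-month WT replicate 1 or 2. With age in WT, Kcnc2-201, Kcnh5-201 and Kcnc1-201 rose (0.552% of all tested transcripts rose), and none of them did without 1-month WT replicate 2 or 6-month WT replicate 1 or 2; the 8 calls at 1 month became 2 without 1-month WT replicate 2, 4 without 1-month 5xFAD replicate 2 and 5 without any 1 of the other 1-month libraries or of 6-month WT replicates 1 and 2.

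For Kcnc1 and Kcnc2 the transcript difference was larger than that of the gene. The long Kcnc1-201 (7760.0 nt) took 46.9 ± 3.58% of Kcnc1 counts in WT and 67.6 ± 1.99% in 5xFAD at 1 month (SD, n = 3), and the shorter Kcnc1-203 (3156 nt) did not pass (0.07 ± 0.18, adjusted p 0.934). At 6 months Kcnc1-201 took 63.4 ± 2.91% in WT and 48.5 ± 5.55% in 5xFAD. Kcnc2-201 took 27.1 ± 8.16% of Kcnc2 counts in WT and 66.9 ± 14.4% in 5xFAD at 1 month, and Kcnc2-203 took 42.3 ± 21.2% and 1.77 ± 1.79%; the difference of Kcnc2-203 did not pass (-4.08 ± 1.66, adjusted p 0.251). The shares themselves were not tested, and the spread of the estimated split within a group is part of the SDs given.

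No retained-intron transcript of these genes passed in any of the 3 transcript comparisons, the smallest adjusted p being 0.103 (Kcnt1-208 at 1 month, -1.71 ± 0.49). Of 30 annotated, 11 had a mean of at least 10 counts. The most abundant was Kcnt1-206, which took 39.8 ± 11.2% and 54.5 ± 7.55% of Kcnt1 counts at 1 month and 46.1 ± 4.98% and 30.7 ± 3.97% at 6 months, WT first. Its own level did not pass at either age (-0.06 ± 0.25, adjusted p 0.964, and -0.45 ± 0.25, adjusted p 0.534), and the protein-coding Kcnt1-201 had -0.93 ± 0.26, adjusted p 0.0988, at 1 month. Kcnab3-203 took 19.1 ± 5.85% of Kcnab3 counts in 6-month WT and 46.7 ± 12.3% in 6-month 5xFAD (1.35 ± 0.61, adjusted p 0.406). The other 8 retained-intron transcripts of at least 10 counts (Kcnab3-202, Kcnd3-204, Kcnip2-204, Kcnj9-203, Kcnma1-222, Kcnn2-207, Kcnn3-202 and Kcnt1-214) had log2 fold changes of -0.84 to 2.13 at 1 month and -1.16 to 0.39 at 6 months.

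Genes whose proteins anchor or assist these channels, or act beside them, were counted from lists outside the family. Of 18 tested anchoring and auxiliary partners, 3 rose and 1 fell at 1 month, and 1 rose and 2 fell at 6 months. Of all tested genes, 10.7% rose and 8.91% fell at 1 month and 2.48% rose and 3.89% fell at 6 months. The small counts of these lists are not a result about a list. The log2 fold changes at 1 and 6 months of Ank3, ankyrin G, were 0.67 ± 0.11, adjusted p 0.000248, and -0.42 ± 0.11, adjusted p 0.0283, and those of Dlg2, a synaptic scaffold, were 0.61 ± 0.11, adjusted p 0.000512, and -0.41 ± 0.11, adjusted p 0.0297. Amigo1, an adhesion protein that binds Kcnb channels, rose at 1 month (0.45 ± 0.11, adjusted p 0.00473), and Vapa, a protein of contacts between the endoplasmic reticulum and other membranes, was lower at 1 month (-0.40 ± 0.10, adjusted p 0.00745) and higher at 6 months (0.40 ± 0.10, adjusted p 0.0210). Of 7 cyclic-nucleotide channel genes, the rod channel subunit Cngb1 rose at 1 month (0.32 ± 0.08, adjusted p 0.00530), the pacemaker channel Hcn4 did not pass (0.55 ± 0.22, adjusted p 0.0778), and none passed at 6 months, when Hcn4 (-0.54 ± 0.22, adjusted p 0.143), Cngb3 (0.40 ± 0.19, adjusted p 0.238) and Cnga1 (0.14 ± 0.08, adjusted p 0.376) had the smallest p. Of 4 sodium-potassium pump genes, the beta subunit Atp1b2 rose at 1 month (0.31 ± 0.07, adjusted p 0.00507), and at 6 months Atp1b2 and Atp1b1 had the smallest p (0.208 and 0.453, adjusted), neither past the threshold.

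The other 26 members were below the filter on low counts. No count was seen in any library for 5 of them (Kcne1, Kcnk16, Kcnk18, Kcnk7 and Kcnmb3). The remaining 21 had at most 32 counts in a library: Kcna10, Kcna7, Kcne3, Kcne4, Kcng1, Kcng3, Kcnh3, Kcnh4, Kcnj1, Kcnj15, Kcnj16, Kcnj4, Kcnk13, Kcnk15, Kcnk5, Kcnk6, Kcnmb1, Kcnn4, Kcnq1, Kcnrg and Kcnv1. Kcnk13 reached that highest count and had counts in 10 of 12 libraries; Kcnq1, which shares 121 exonic bases with its antisense RNA Kcnq1ot1 (56.6 CPM), had counts in 3. At this depth these genes were too low for a comparison, which does not show that they are absent from rare retinal cells.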

How the data were processed

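Polyadenylated RNA of whole retina was sequenced from an unstranded library kit, per the labels' protocols. Tools listed in the submitters' processing notes are RSEM 1.3.3, STAR 2.7.1a, DESeq2 1.32.0 and Trim Galore 0.6.6, with build GRCm38.p6; the annotation version is not given in the sources used here. The authors deposited tables of expected counts, as RSEM estimates them, per gene and per transcript, not normalized, in which reads that fit several transcripts are shared by estimate, so isoform values carry more error than gene values. Identifiers were matched to GENCODE M21 (55227 genes).

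Counts were rounded and tested over each whole table with edgeR 4.0.16 (R 4.3.3; TMM scaling, its filter on low counts by group, robust quasi-likelihood test, all 12 libraries in 1 fit by group), with Benjamini-Hochberg adjustment and calls at an adjusted p below 0.05. Errors of log2 fold changes are standard errors, and other errors are SDs. 16233 genes and 45326 transcripts were tested. Levels per length used the count-weighted length of a gene's transcripts. The length adjustment removed, through offsets, each library's trend on length and GC content (natural splines with 4 degrees of freedom each). The models were tested on simulated data, in which a length trend put in without changed genes gave 1723 false calls and 0 after removal. Because that run held no changed genes, it cannot tell whether the removal also takes out real changes that go with length. It tested a trend that was put in, not the trend of the real libraries. Alternatives were DESeq2 1.42.0, other scalings, filters and sets of libraries. Values in every library are given for the most abundant member per length of each subfamily, the 6 called members with the smallest p in each comparison and direction and the 10 in the change between ages. The members and lists were chosen with earlier results of these data known. 4 further genes that meet the naming rule, and some partner genes, entered the tests over all genes but are not reported here.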

Additional observations from a re-analysis of the deposited data

Results flagged for a closer look

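The difference between 5xFAD and WT retina differed between ages for 25 potassium channel genes, by edgeR's test of the interaction with Benjamini-Hochberg adjustment over all genes. The values that follow are the log2 fold change at 6 months minus that at 1 month, and the library values of the main genes stand in the text above. In the Kcna genes it was Kcna1 -2.48, Kcna2 -2.03, Kcna3 -3.89, Kcna4 -1.27, Kcna5 -0.77 and Kcna6 -1.05. In the Kcnb and Kcnc genes it was Kcnb2 -1.99, Kcnc1 -1.32 and Kcnc2 -0.67. Among Kcnd, Kcnh and Kcnq genes it was Kcnd3 -0.83, Kcnh1 -1.32, Kcnh2 -0.54, Kcnh5 -4.34, Kcnh7 -1.24 and Kcnq3 -1.57. The calcium-activated genes gave Kcnma1 -1.33 and Kcnn2 -1.11. The inward rectifiers gave Kcnj2 -1.88, Kcnj5 -0.90 and Kcnj6 -2.68, the leak channels Kcnk3 -0.62 and Kcnk9 -1.85, and the silent subunit Kcnv2 -0.43. The difference moved upward for Kcnt1 0.75 and Kcnj14 0.50. Of these 25 calls, 18 held without each library in turn, and those of Kcnh1, Kcnh2, Kcnj5, Kcnj6, Kcnj14, Kcnk3 and Kcnv2 did not. The Kcnh1 call ended without 1-month WT replicate 2, 1-month 5xFAD replicate 1 or 3, 6-month WT replicate 2 or 6-month 5xFAD replicate 2 (adjusted p 0.0522 to 0.1000), and the Kcnj5 call without 1-month WT replicate 2, 1-month 5xFAD replicate 1 or 2, 6-month WT replicate 2 or 6-month 5xFAD replicate 2 or 3 (adjusted p 0.0538 to 0.0771). The mean transcript length of the libraries moved with the same groups, and its part was tested only through the length adjustment, under which 15 of the 25 calls held and those of Kcna4, Kcnc2, Kcnd3, Kcnh1, Kcnh7, Kcnj5, Kcnj6, Kcnk3, Kcnq3 and Kcnv2 did not. Without the 3 libraries richest in ribosomal RNA, the calls of Kcna4, Kcnd3, Kcnh1, Kcnj14, Kcnj6, Kcnk3, Kcnn2, Kcnq3 and Kcnv2 ended.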

How the results depend on the processing

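The counts of channel genes called were 20 at 1 month, 11 at 6 months, 25 for the change between ages, 9 with age in WT and 20 with age in 5xFAD, and other scalings, filters and DESeq2's Wald test kept each within 1.5 times. Fitting only the 6 libraries compared gave 7 at 6 months and stayed within 1.5 times elsewhere. With a 2-fold minimum they were 6, 2, 16, 3 and 9. Shares over all genes are given above only for the main fit and for the removal of the length and GC trend. Counts under the other settings therefore cannot be set against all genes here. Removing the length and GC trend gave 10 at 1 month, 15 for the change between ages and 13 with age in 5xFAD. Leaving out the 3 libraries richest in ribosomal RNA gave 2 at 6 months and 12 with age in 5xFAD. Without each library in turn the counts ran from 13 to 22, 4 to 15, 20 to 26, 7 to 12 and 13 to 21, in the same order. The calls that held under every alternative but the 2-fold minimum numbered 7 at 1 month (Kcna1, Kcna2, Kcna6, Kcnc1, Kcnh5, Kcnma1 and Kcnt1) and 2 at 6 months (Kcnh5 and Kcnk9). No called gene changed its direction under any alternative run. Transcript counts were 8 at 1 month, 1 at 6 months and 3 with age in WT, against 27, 16 and 16 by DESeq2, and without each library 2 to 7, 0 to 3 and 0 to 4. At 1 month they were 5 with a 2-fold minimum and 4 when those 3 libraries were left out; at 6 months 3 with the loosest filter, 2 with the trend removed and 0 without those libraries; and with only the 6 libraries compared 0 at 6 months and 0 with age in WT. Replicates with the same number did not deviate together (correlations -0.09 to 0.06 across genes), so no pairing by number was seen. The labels state none, and this does not show that such libraries were prepared apart. With the replicate block the gene counts were 19, 8, 23, 8 and 17. They were 12, 15 and 11 with the trend removed too (1 month, change between ages, age in 5xFAD). The transcript counts with the block were 4, 0 and 0, or 3, 0 and 1 with the trend removed. The causes of these differences were not tested. In data simulated for the 1-month comparison, 40 of 67 genes changed 2-fold and 17 of 67 changed 1.5-fold were found, so a channel gene that was not called may still differ.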
